A study of Mus musculus with 12 samples.

Results

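The transcripts described here were those that took the most ribosome footprints in mouse embryonic fibroblasts at 35 °C. They were the transcript IDs with a listed length above 100 and below 3000 and a mean of at least 1000 CPM (counts scaled to a library total of 1000000) in the 3 footprint libraries of cells that were not warmed. The rule found 80 of the 63759 IDs in the tables, 46419 of which had a listed length. Neighbouring IDs with near-identical counts were joined into read-sharing groups, which left 43 groups. Each group is described by its ID with the highest footprint level. The footprint levels at 35 °C chose these transcripts, so their height in those libraries is a description and not a finding.

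The cells were wild-type C57BL/6 fibroblasts, connective-tissue cells grown from embryos and kept to full confluence. All cells had been synchronised with Dex. In 1 treatment they were kept at 35 °C, and in the other they received WTS, a warm step to 38.5 °C for 2 h that began 24 h after Dex. Each treatment gave 3 RNA-seq and 3 footprint libraries, 12 in all, which the series describes as independent experiments. When the cells at 35 °C were harvested relative to Dex is not in the annotation used here, so harvest time and warming cannot be told apart. The p-values below measure the spread between these samples only.

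In ribosome profiling, lysates are treated so that only the piece of mRNA covered by a ribosome survives, and these footprints are sequenced. Cycloheximide in the lysis buffer holds ribosomes in place. The footprints of a transcript depend on how many copies it has, how often ribosomes start on each copy, how fast they move and how long the coding region is. Dividing footprints by RNA removes the copy number and leaves a relative measure of ribosome load per transcript. In cultured fibroblasts the most heavily translated mRNAs generally encode cytoskeletal, extracellular matrix and ribosomal proteins and glycolytic enzymes. Which of the IDs below belong to such classes could not be determined: 0 of the IDs occurred in the 4 reference tables of names and sequences, so no gene name or sequence is given and fibroblast markers were not checked.

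Library totals were 8686742 to 12212227 counts in RNA and 8449802 to 82560281 counts in footprints. The lowest count of any of the 80 IDs in any library was 2453. Libraries numbered 1 stood apart from those numbered 2 and 3 in both assays and both treatments. The chi-square per degree of freedom between numbers 2 and 3 was 1.37 and 1.42 in footprints and 4.91 and 1.60 in RNA, for 35 °C and WTS, while it was 36.4 to 92.6 for every pair that included number 1. Results are therefore given within each replicate number. All 43 groups passed the filter on low counts in the tests below.

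Of the 43 groups, 27 held 1 ID and the largest held 7. Groups also lay close together in the tables: they formed 31 neighbourhoods of IDs within 30 rows, and 7 of these neighbourhoods held 19 of the groups. When the leading group of a neighbourhood was set beside each of its other groups, 7 of 12 such pairs kept a nearly fixed count ratio, with an SD of the log2 ratio under 0.1 over the 12 libraries, and the median SD was 0.0694. The median SD over the 882 pairs of groups from different neighbourhoods was 0.640. Their lowest SD was 0.0555, so an SD under 0.1 also occurred between neighbourhoods. The neighbourhood of uc008zro.2 (listed length 725) is an example. Its neighbours uc008zri.2, uc008zrh.2, uc008zrk.2 and uc008zrj.2 had 0.790, 0.476, 0.371 and 0.266 of its length and 0.793, 0.455, 0.340 and 0.224 of its counts. The SD of the log2 ratio was 0.0126 to 0.0376 for these pairs. Counts there followed length closely, and these 5 groups cannot be taken as 5 separate transcripts. How reads that fit several IDs were assigned is not given in the sources used here, so values of single isoforms are uncertain.

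The lower limit of 1000 CPM passed through a continuous range of levels. Just inside it lay uc007thb.2 with a mean of 1006 CPM (1151, 954 and 912 in numbers 1, 2 and 3) and uc009kya.1 with 1011 CPM (1722, 652 and 659). Just outside it lay uc057auw.1 with 996 CPM (992, 993 and 1004) and uc029rmc.2 with 996 CPM (1026, 995 and 968). Of the 43 groups, 32 reached 1000 CPM in all 3 libraries. Another 9 reached it in number 1 alone, and 2 missed it in number 1 but reached it in numbers 2 and 3. In the footprint libraries with WTS, which the rule did not use, 42 of the 43 groups again had a mean of at least 1000 CPM. There, 3 other groups of the same length range joined them.

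Footprints were concentrated in a few of these transcripts. Summed over 1 ID per group at 35 °C, uc008pfi.2 alone held 15.3% of the footprints of the 43 groups, the first 3 held 36.4%, and 7 groups were enough to reach 50%. These 7 groups include uc008zro.2 and uc008zri.2, which cannot be taken as separate transcripts. Other groups of their neighbourhood are also in the total. The leading groups were largely the same after warming, and 9 of the first 10 were again among the first 10 with WTS.

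The leading transcript, uc008pfi.2 (listed length 801, a group of 5 IDs), had 25816, 16674 and 16256 footprint CPM at 35 °C and 27399, 17336 and 16906 with WTS. Its RNA was also the highest of the members, at 19861, 12149 and 13338 CPM at 35 °C and 19297, 13392 and 12524 with WTS. Number 1 was high in both assays, and the treatments overlapped. The next, uc007kzn.2 (listed length 1444), had 19237, 11042 and 10440 footprint CPM at 35 °C and 15686, 11269 and 11750 with WTS. Its RNA was far lower than its footprints, at 4533, 2446 and 1984 CPM at 35 °C and 3609, 1955 and 2216 with WTS. Number 1 was again the highest library in each group of 3, and the treatments overlapped.

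Next came uc007bju.2 (listed length 2468, the longest of the 43, a group of 7 IDs), which had the opposite pattern over the replicate numbers. Its footprints were 10967, 14981 and 14058 CPM at 35 °C and 10197, 13954 and 13859 with WTS. Its RNA was 6467, 7567 and 6777 CPM at 35 °C and 5406, 6998 and 6879 with WTS. Here number 1 was the lowest library in every group. The fourth, uc009avm.2 (listed length 1363), had 11214, 5952 and 5729 footprint CPM at 35 °C and 9288, 6121 and 6302 with WTS, with number 1 the highest.

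The fifth to the tenth stood lower and closer together, with means of 2615 to 5119 footprint CPM at 35 °C. They were uc008zro.2 at 5119 ± 864 CPM (SD, n = 3), uc009ajk.2 at 4564 ± 205, uc008zri.2 at 4041 ± 762, uc007izh.3 at 3332 ± 1467, uc008lrq.2 at 2767 ± 1488 and uc007awq.2 at 2615 ± 1543. The means of neighbours in this order differed by less than the larger of their SDs over libraries. Each library measured all of them, however, and uc009ajk.2 was above uc008zri.2, uc007izh.3 above uc008lrq.2 and uc008lrq.2 above uc007awq.2, in each of the 3 libraries. The spread of uc008lrq.2 came from number 1, with 4484, 1968 and 1850 CPM in numbers 1, 2 and 3, while uc009ajk.2 was even, with 4329, 4660 and 4703 CPM. The plot of footprint levels by library shows this for each of the 43 groups.

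**Figure D1:**
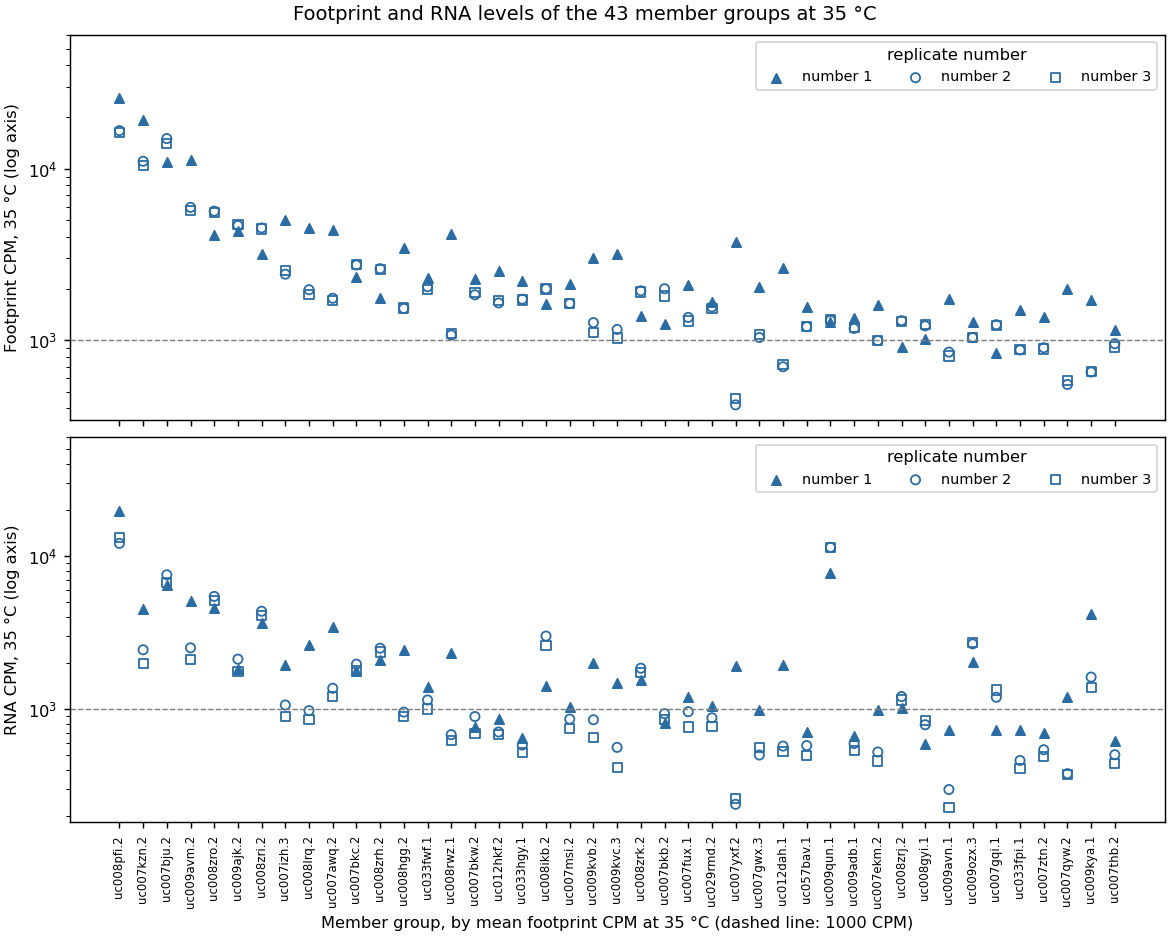
Footprint CPM (upper panel) and RNA CPM (lower panel) at 35 °C, on log axes, for 1 ID per read-sharing group in the order of the mean footprint CPM, with 1 point for each of the 3 replicate numbers and a dashed line at 1000 CPM. Numbers 2 and 3 lie close together, number 1 is far from them in many groups, and uc009qun.1 stands out in RNA with 7816 to 11437 CPM.

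The 80 IDs held 38.5%, 30.7% and 29.7% of all footprint counts in numbers 1, 2 and 3 at 35 °C, a mean of 33.0% ± 4.78 (SD, n = 3). With WTS they were 37.2%, 30.4% and 30.2%, a mean of 32.6% ± 4.04. The treatments overlapped, and the change with WTS within numbers 1, 2 and 3 was -1.21, -0.357 and 0.427 percentage points. The change had no common sign. It was smaller than the SD over the libraries of a treatment, but that SD came mostly from number 1. It does not measure the spread of changes within numbers.

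The same IDs took a smaller share of RNA. It was 25.8%, 20.5% and 19.8% at 35 °C (22.0% ± 3.31) and 24.6%, 20.3% and 19.9% with WTS (21.6% ± 2.59). Within each library pair the footprint share was 1.49 to 1.51 times the RNA share, in both treatments. The members were chosen by footprints, and these levels carry over between treatments, so a larger footprint share is favoured by the choice. This ratio of shares and those below are a description. Because read-sharing IDs may count a read more than once, the shares were also taken over 1 ID per group. That gave 28.5%, 20.6% and 19.9% of footprints and 17.9%, 14.0% and 13.2% of RNA at 35 °C. Footprint shares were then 1.47 to 1.59 times the RNA shares over both treatments. Groups of the same neighbourhood, such as that of uc008zro.2, still entered separately, so a read may still count more than once. When the 3 groups with the most footprints were left out of the 80 IDs, the others held means of 13.1% of all footprint counts and 9.69% of all RNA counts at 35 °C, and the footprint share was then 1.24 to 1.45 times the RNA share over both treatments.

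**Figure D2:**
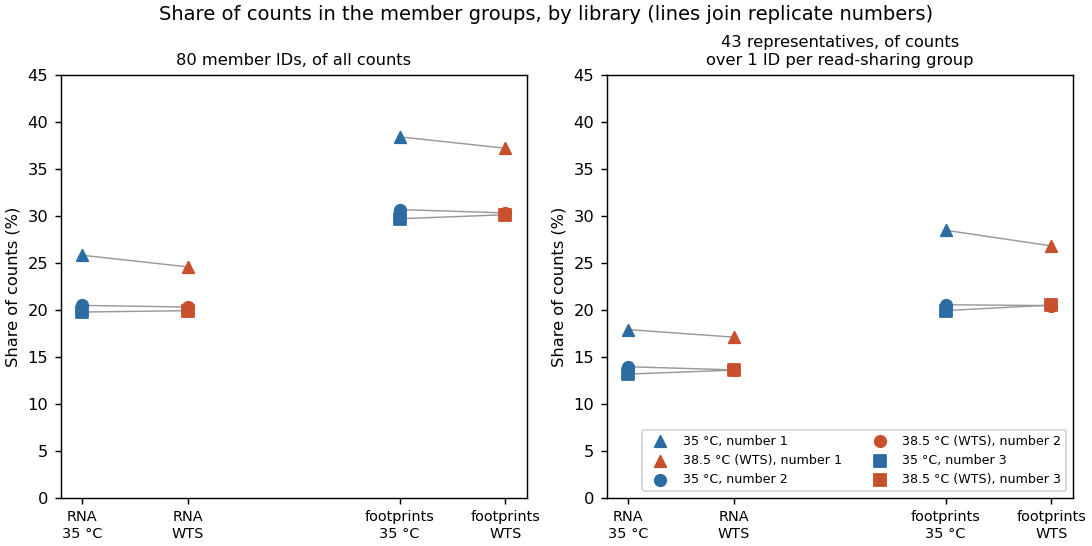
Share of counts in percent, by library, of the 80 IDs among all counts (left) and of the 43 representatives among counts over 1 ID per group (right), with lines joining the same replicate number at 35 °C and with WTS. On the left, footprint shares of 29.7% to 38.5% lie above RNA shares of 19.8% to 25.8%, number 1 is highest, and the lines show no common slope.

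The most footprinted transcripts covered a wide range of lengths, from 144 to 2468. Their median listed length was 374, with an interquartile range of 296 to 743. Of the 43 groups, 26 had a length of at most 500 and 8 were above 1000. Among the first 10 by footprints, uc007kzn.2, uc007bju.2, uc009avm.2, uc008lrq.2 (1162) and uc007awq.2 (1455) were above 1000. The rule's length range left out 4 longer and 2 shorter IDs that also reached 1000 CPM. The 17147 groups of the same length range that could be tested had a median of 398 and an interquartile range of 239 to 645. The files do not state the unit of this length, so it is used only to compare transcripts with each other. Across the 43 groups, Spearman's rho between length and footprint CPM at 35 °C was 0.328. These points share their libraries and in part their reads.

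Dividing by length changed the order. Per 100 units of listed length at 35 °C, uc008pfi.2 kept the first place at 2445 footprint CPM, followed by the short uc009ajk.2 (length 366) at 1247 and uc007izh.3 (length 293) at 1137. The long uc007bju.2 dropped from the third place to the 22nd, at 540 CPM per 100 units, and uc007awq.2 (length 1455) dropped from the tenth to the 35th, at 180. Of the first 10 by footprints, 5 were among the first 10 per length.

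Among the members, higher footprint levels went together with higher RNA levels. Across the 43 groups, Spearman's rho between footprint and RNA CPM at 35 °C was 0.634. The rule cut off lower footprint levels in these same libraries, and the groups in part share reads. How closely footprints and RNA go together in general is therefore not read from this value. Of the first 10 by footprints, 6 were also among the first 10 by RNA. Of the 35 groups in the length range with at least 1000 RNA CPM at 35 °C, 24 were members, and the other 19 members had less RNA than that.

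The ratio of footprint to RNA CPM was above 1 for most members. Its median over the 43 groups was 1.8 at 35 °C and 1.78 with WTS, against 0.805 and 0.802 over the 17905 groups tested. It was above 1 in all 3 replicate numbers for 33 members at 35 °C and for 34 with WTS, against 21.6% and 21.8% of all tested groups. Since the members were chosen by footprints and a transcript's footprint level carries over between treatments, a high ratio is favoured by the choice, and nothing is read from these counts.

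The highest ratio belonged to uc007kzn.2, with 4.24, 4.51 and 5.26 at 35 °C and 4.35, 5.77 and 5.30 with WTS. The next was uc033hgy.1 (listed length 402), whose footprints of 2212, 1732 and 1713 CPM at 35 °C stood over RNA of only 647, 582 and 522 CPM. Its ratios were 3.42, 2.98 and 3.28 at 35 °C and 3.46, 3.21 and 3.13 with WTS. Then came uc009avn.1 (listed length 203), with ratios of 2.38, 2.86 and 3.55 at 35 °C and 2.10, 3.48 and 3.45 with WTS, and uc012hkf.2 (listed length 360), with ratios of 2.96, 2.32 and 2.49 at 35 °C and 3.61, 2.64 and 2.56 with WTS. In each of these transcripts the lowest of the 6 ratios was above every ratio of uc008pfi.2, which ran from 1.22 to 1.42. The same held for other members, among them uc007bju.2 and uc009ajk.2.

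The lowest ratio belonged to uc009qun.1 (listed length 453). Its RNA was the second highest of the members, at 7816, 11437 and 11402 CPM at 35 °C and 8385, 12115 and 12423 with WTS. Its footprints were far lower, at 1279, 1303 and 1321 CPM at 35 °C and 2175, 1511 and 1510 with WTS, and ranked 31st among the members at 35 °C. Its ratios were 0.164, 0.114 and 0.116 at 35 °C and 0.259, 0.125 and 0.122 with WTS. Below 1 in all libraries were also uc009kya.1, with ratios of 0.402 to 0.485, and uc009ozx.3, with ratios of 0.380 to 0.726. For these 3 the RNA CPM exceeded the footprint CPM in every replicate number and treatment. The median ratio of all tested groups was itself below 1, at 0.805 at 35 °C and 0.802 with WTS.

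Footprint and RNA levels were compared in the 6 libraries with WTS. The rule did not use these libraries, but the footprint levels it chose by carry over to them, so the direction of the members' differences is favoured by the choice and the counts are a description. In edgeR's quasi-likelihood test with Benjamini-Hochberg adjustment, 24 of 43 groups passed at 0.05, 23 with footprints higher and 1 lower. Over all IDs tested, 47.9% passed, 22.5% higher and 25.4% lower, relative to a middle of the table that the scaling sets to no difference. The middle 50% of the members had log2 differences of footprints over RNA of 0.88 to 1.55, and the median of all IDs was -0.01. With the replicate number as a block, 35 members passed, 33 higher and 2 lower, against 63% of all IDs, 30.7% higher and 32.3% lower. Without RNA number 2 or number 3 of the WTS group, 13 members (30.2%) passed, 12 higher and 1 lower. Over all IDs 33.9% and 35.2% passed, 15.3% and 16% higher and 18.6% and 19.2% lower. The members' median log2 difference was 1.13 and 1.17 in these fits.

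For single transcripts the log2 difference of footprints over RNA with WTS was 2.76 ± 0.45 (SE) for uc007kzn.2 in edgeR's test, with an adjusted p of 0.00232. It was 2.14 ± 0.30 for uc033hgy.1 (adjusted p of 0.00122 in edgeR). It was -2.22 ± 0.41 for uc009qun.1 (adjusted p of 0.00394 in edgeR), the only member called lower without the block. Among the 5 lowest ratios, uc008ikb.2 had 0.20 (adjusted p of 0.657 in edgeR) and uc008zrh.2 had 0.34 (adjusted p of 0.283 in edgeR), and under total-count scaling both were below 0, at -0.19 and -0.0464. The leading uc008pfi.2 had 0.91 ± 0.45 with an adjusted p of 0.138 in edgeR's test, and 0.83 ± 0.22 with an adjusted p of 0.00904 with the block. The block also brought uc009kya.1 past the threshold, at -0.71 ± 0.20 with an adjusted p of 0.0125 in edgeR, against -0.62 ± 0.65 and 0.463 without it. The 2 members called lower with the block were uc009qun.1 and uc009kya.1, and uc009ozx.3 was not called lower. Among the calls that did not hold without RNA number 2 of the WTS group were those of uc009avm.2, uc007izh.3 and uc009avn.1. Their log2 differences were 1.65, 1.84 and 1.89 with all libraries and 1.46, 1.69 and 1.65 without it, and their adjusted p in edgeR went from 0.0228, 0.0165 and 0.0195 to 0.0943, 0.0720 and 0.0748. With number 3 left out instead, the adjusted p was 0.0910, 0.0696 and 0.0749.

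**Figure D3:**
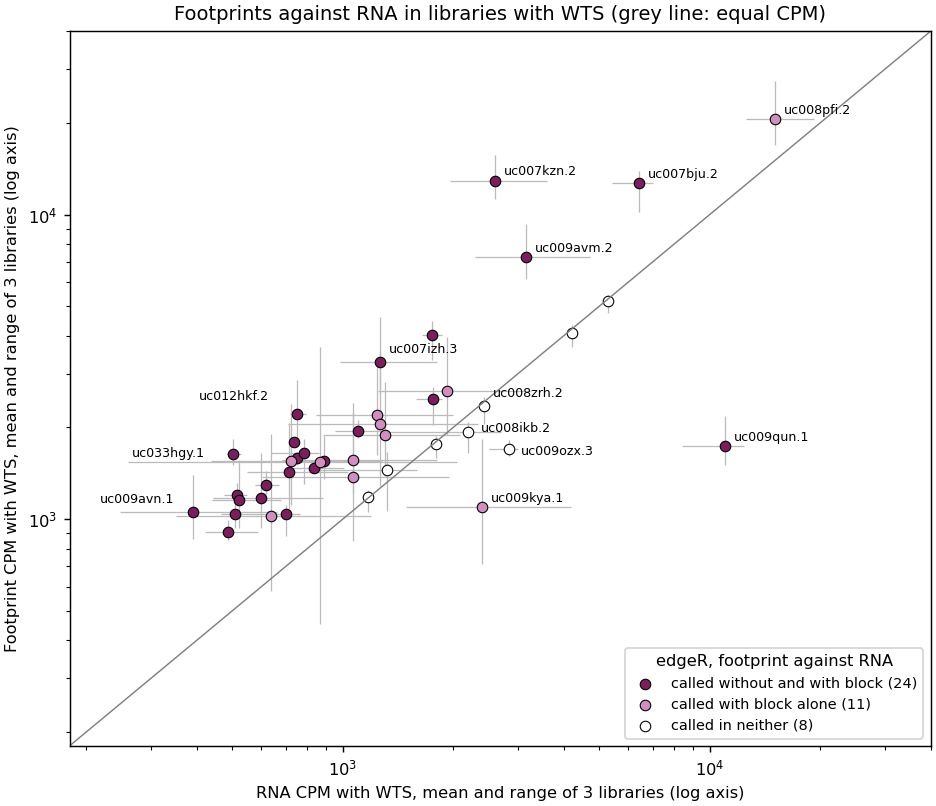
Mean footprint CPM against mean RNA CPM with WTS (log axes) for the 43 groups, with bars over the range of 3 libraries, a line at equal CPM, and fill by edgeR's call: 24 called without and with the block, 11 with the block alone and 8 in neither. Most points lie above the line, uc007kzn.2 farthest, and uc009qun.1 lies farthest below it.

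Number 1 was at least 2-fold above the mean of numbers 2 and 3 in 14 of the 43 groups in RNA at 35 °C, in 11 in RNA with WTS, in 12 in footprints at 35 °C and in 8 in footprints with WTS. Over all IDs tested the shares were 4.76%, 5.08%, 2.52% and 2.12%. At least 2-fold below were 0, 1, 0 and 0 groups, against 7.38%, 6.59%, 22.8% and 18.8% of IDs. The rule's mean includes number 1 of the footprints at 35 °C, which favours groups that are high there. The footprint libraries numbered 1 were also the deepest, with 23393113 counts at 35 °C and 82560281 with WTS. The RNA libraries numbered 1 had the fewest counts of their groups, with 9859237 at 35 °C and 8686742 with WTS. The part of depth in this difference was not tested. In 8 groups number 1 was at least 2-fold above in both assays and both treatments, and in 12 it was below the mean of the others in all 4. The shares of all IDs with these joint patterns were not counted, so nothing about the members is read from them.

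The widest gap was in uc007yxf.2 (listed length 180, a group of 3 IDs). Its footprints were 3712, 419 and 457 CPM at 35 °C and 3664, 486 and 452 with WTS. Its RNA was 1930, 238 and 259 CPM at 35 °C and 2050, 291 and 260 with WTS. Footprints and RNA moved together, so its ratio of footprints to RNA was 1.92, 1.76 and 1.76 at 35 °C and 1.79, 1.67 and 1.74 with WTS. This transcript is a member through number 1 alone. Between numbers 2 and 3, the larger over the smaller footprint level had a median of only 1.02 at 35 °C and 1.03 with WTS over the 43 groups, and a highest value of 1.14.

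**Figure D4:**
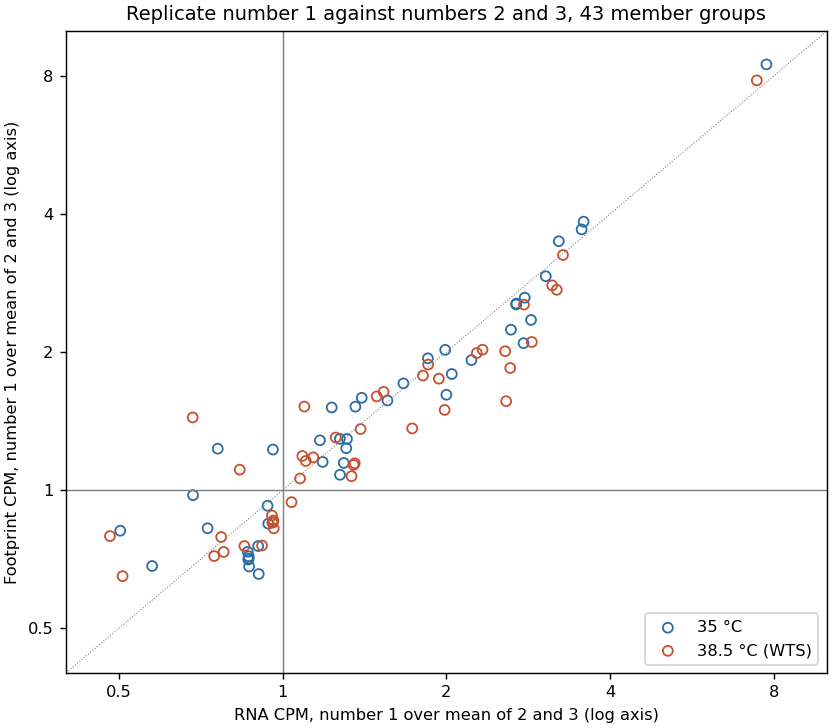
CPM in number 1 over the mean of numbers 2 and 3 for the 43 groups, footprints (vertical) against RNA (horizontal) on log axes, with 1 point per group at 35 °C and 1 with WTS. Most points lie near the dotted line of equal ratios, and uc007yxf.2 lies highest, at 7.44 to 8.47.

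After 2 h of WTS, differences of these transcripts between the treatments were mostly within the spread between libraries. In RNA from whole cultures, a change in the share of cells of a type and a change of RNA per cell cannot be told apart. Without a replicate block, 0 of 43 groups passed in RNA and 0 of 43 in footprints in edgeR's test, and 0 members had an unadjusted p under 0.05 in either. Over all IDs edgeR called 0 of 27223 in RNA, where 1119 had an unadjusted p below 0.05, and 8 of 26920 (0.0297%) in footprints, 0.0149% higher and 0.0149% lower. DESeq2 called 45 IDs in RNA overall and 0 members, and limma-voom called 0. The footprint libraries at 35 °C chose the members, so the footprint change shares them with the rule.

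With the replicate number as a block, which the libraries' correlations allow, 3 of 43 groups passed in RNA (1 higher, 2 lower) and 3 in footprints (3 higher). These are 6.98% of the groups in each assay. The shares over all IDs were 4.65% in RNA (2.29% higher and 2.35% lower) and 6.49% in footprints (3.49% higher and 3% lower). In these fits the members' shares were near the background. They were not near it in every fit. With numbers 2 and 3 alone, 12 members (27.9%) passed in footprints, 9 higher and 3 lower, against 11.3% of all IDs, 6% higher and 5.27% lower. With the block and without number 3, 12 members passed in RNA, 1 higher and 11 lower, against 4.39% of all IDs, 2.25% higher and 2.14% lower. With the block and without number 1 or number 2, 0 members passed in RNA, so this count depended on which number was left out.

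Within replicate numbers 1, 2 and 3, the median log2 change with WTS over the members was -0.20, -0.01 and 0.02 in footprints and -0.16, -0.11 and 0.04 in RNA. For all tested groups the medians were between -0.02 and 0.00. Higher with WTS were 12, 21 and 25 members in footprints and 10, 9 and 34 in RNA, so the direction differed between the numbers. The SD of the change over the members was 0.165 to 0.260 in footprints and 0.0914 to 0.185 in RNA, against 0.361 to 0.408 and 0.358 to 0.388 over all tested groups, most of which have far lower counts. In footprints 7 members were higher with WTS in all 3 numbers and 13 were lower, against 21.5% and 22.2% of IDs tested. In RNA 3 were higher and 6 lower in all 3 numbers, against 17.8% and 19.3%. Without regard to numbers, all footprint libraries with WTS lay above all those at 35 °C in CPM for 2 members and below them for 0, against 4.7% and 3.24% of IDs, and in RNA for 0 and 0, against 6.54% and 4.09%. The 2 members were uc009ozx.3 and uc009qun.1.

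**Figure D5:**
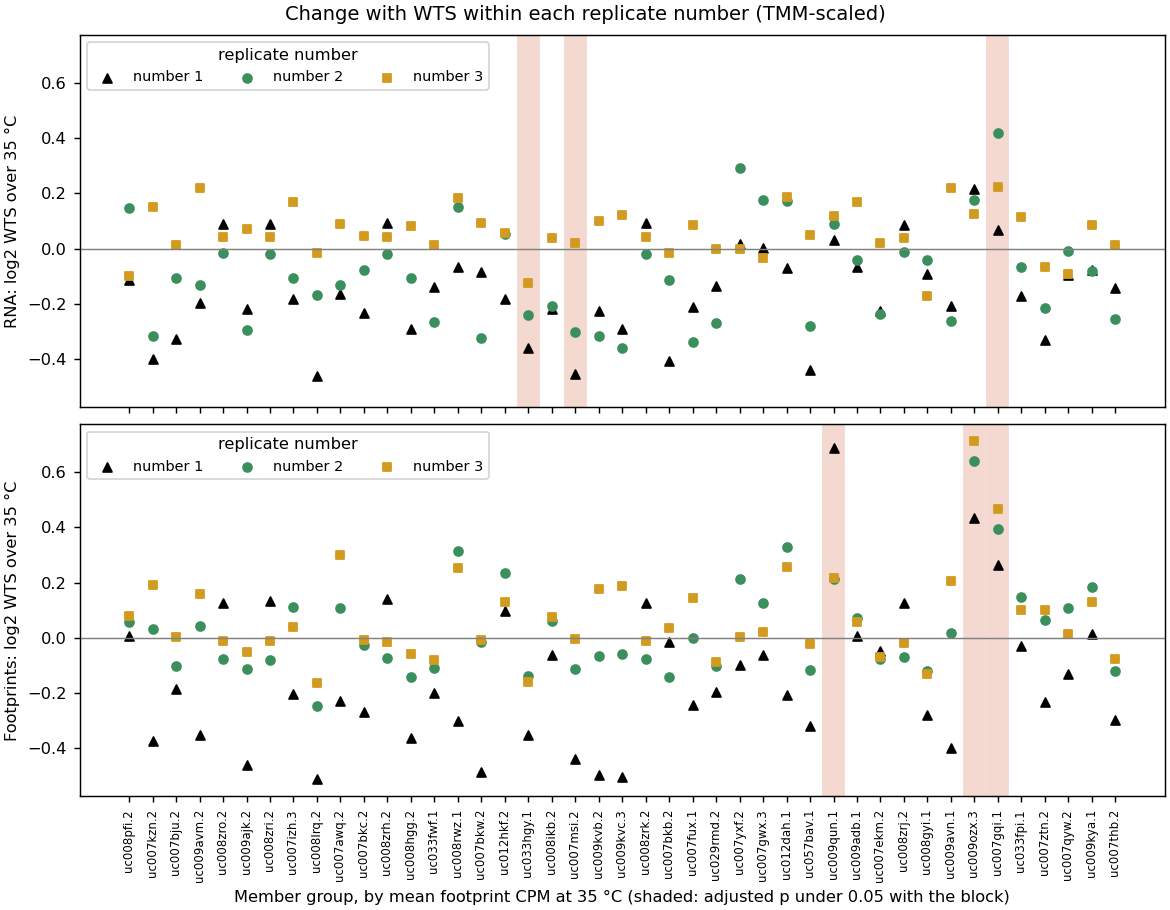
Log2 change with WTS within each replicate number (TMM-scaled) for the 43 groups, in RNA (upper panel) and footprints (lower panel), with 1 point per number and shading where edgeR's adjusted p with the block was under 0.05. In footprints the changes lie between -0.51 and 0.71, number 1 is often the lowest, and uc009ozx.3 is high in all 3 numbers.

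The transcript with the largest footprint change was uc009ozx.3 (listed length 637, a group of 2 IDs). It had 1273, 1034 and 1034 footprint CPM at 35 °C and 1815, 1610 and 1667 with WTS. All 3 libraries with WTS lay above all 3 at 35 °C, with means of 1697 ± 106 and 1114 ± 138 (SD, n = 3). Its RNA was 2050, 2673 and 2721 CPM at 35 °C and 2499, 3010 and 2982 with WTS, and these groups overlapped. In edgeR's test the footprint log2 change was 0.57 with an adjusted p of 0.894 without the block, and 0.59 ± 0.08 with an adjusted p of 0.00112 with it. Under the 9 fits with the block the adjusted p ran from 1.69e-10 to 0.00278, and the call held in 9. Its RNA change was 0.17 ± 0.08 with an adjusted p of 0.196 in edgeR with the block.

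The other riser was uc007gqi.1 (listed length 793), with 839, 1231 and 1224 footprint CPM at 35 °C and 1065, 1615 and 1665 with WTS. Its RNA was 729, 1197 and 1336 CPM at 35 °C and 802, 1592 and 1568 with WTS. The treatments overlapped in both assays because number 1 was low in both, and within each number both assays were higher with WTS. With the block, edgeR gave 0.37 ± 0.08 in footprints (adjusted p of 0.0144) and 0.24 ± 0.08 in RNA (adjusted p of 0.0476); without it the adjusted p was 0.882 and 0.9999. The footprint call was lost without number 2 (adjusted p of 0.0993 in edgeR with the block) and without number 3 (0.0869), and the RNA call without number 1 (0.0955), without number 2 (0.529) and in DESeq2 with the block (0.182).

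The low-ratio uc009qun.1 passed in footprints with the block, at 0.37 ± 0.10 and an adjusted p of 0.0357 in edgeR, against 0.969 without it. The change was 0.46 without number 2, 0.46 without number 3 and 0.21 without number 1, where the adjusted p was 0.00124. In DESeq2 with the block the adjusted p was 0.0520. Its number 1 footprints went from 1279 to 2175 CPM, while numbers 2 and 3 went from 1303 and 1321 to 1511 and 1510. Its RNA change was 0.08 ± 0.08 with an adjusted p of 0.662 in edgeR with the block.

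The 2 members called lower were called in RNA with the block. In uc007msi.2 (listed length 366) RNA was 1025, 861 and 749 CPM at 35 °C and 785, 695 and 763 with WTS, and the groups overlapped. Within numbers 1, 2 and 3 the log2 change was -0.45, -0.30 and 0.02, and edgeR gave -0.25 ± 0.08 with an adjusted p of 0.0407. In uc033hgy.1 RNA was 647, 582 and 522 CPM at 35 °C and 529, 491 and 482 with WTS. The groups overlapped, each number was lower with WTS, and edgeR gave -0.24 ± 0.08 with an adjusted p of 0.0465. Without the block the adjusted p of both was 0.9999 in edgeR. Leaving out number 1 took it to 0.710 and 0.571, leaving out number 2 to 0.349 and 0.254, and total-count scaling to 0.0888 and 0.0885. Their footprint changes, -0.19 ± 0.09 and -0.22 ± 0.08, had adjusted p values of 0.238 and 0.124 in edgeR with the block.

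Whether WTS changed the footprint to RNA ratio was tested with an assay-by-treatment interaction term in 1 fit of the 12 libraries. In edgeR's test 0 of 43 members and 0 of 28054 IDs passed without the block, and 289 IDs had an unadjusted p below 0.05. With the block the counts were again 0, with 721 IDs under 0.05 unadjusted, and DESeq2 and limma-voom called 0. For uc009ozx.3 the ratio was 0.621, 0.387 and 0.380 at 35 °C and 0.726, 0.535 and 0.559 with WTS, higher in each number. With the block within each assay edgeR gave 0.42 ± 0.12 with an adjusted p of 0.448. With numbers 2 and 3 alone it gave 0.53 with an adjusted p of 0.0104, the only member that passed there.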

How the data were processed

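The authors deposited 1 table of raw counts per library, with transcript IDs and a listed length whose unit is not stated. CASAVA 1.8, STAR 2.7.0 and mm10 are listed in the submitters' processing notes. The counter and annotation are not given in the sources used here. IDs without a length (17340) held 0 counts. The members, lists and named IDs were chosen with earlier results of these data known. IDs at most 30 rows apart with a mean of at least 10 counts and counts plus 1 within 1.25 times in all 12 libraries were joined. CPM is counts over the library total, without TMM; TMM factors were 0.949 to 1.02 in RNA, 0.773 and 0.816 in footprints of number 1, and 1.12 to 1.14 in the other footprints. Fits used the whole table in edgeR 4.0.16 (R 4.3.3, robust quasi-likelihood test, TMM, filterByExpr, Benjamini-Hochberg, threshold 0.05). They were tried on simulated counts with the same dispersion for every ID, which does not show how they behave on these data. Alternatives were DESeq2 1.42.0 and limma 3.58.1, besides other scalings, left-out libraries and other limits. Changes within a number are TMM-scaled log2 differences.

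The pairing by replicate number comes from the data, not the labels. Deviations of same-numbered libraries from their group means correlated at 0.830, 0.465 and 0.574 in RNA and at 0.849, 0.592 and 0.639 in footprints between treatments for numbers 1, 2 and 3. With numbers 2 and 3 crossed, the RNA values were 0.547 and 0.621 and the footprint values 0.621 and 0.635, so these numbers are not told apart.

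Named were the 10 groups with the most footprints, the 5 highest and 5 lowest ratios, the 2 nearest the limit on each side, and 2 risers and 2 fallers by RNA change with the block, then footprints. Of these, the IDs on which a result turns are described. uc007yxf.2 was chosen after its values were seen. Lists of genes by name could not be evaluated.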

Additional observations from a re-analysis of the deposited data

How the results depend on the processing

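Among values for single IDs, 552 kept direction and side of the threshold, 72 came to pass it, 6 no longer passed it and 15 reversed. Counts of members called follow, with the percent of all IDs called in the same fit in parentheses. With the replicate block, 3 members passed in RNA (4.65%) and 3 in footprints (6.49%), and 35 in footprints against RNA (63%). In RNA the number was 0 as reported and 1 with numbers 2 and 3 alone (0.682% higher and 0.572% lower). With the block it was 1 with upper-quartile (4.2%) or total-count scaling (4.16%), 4 with limma-voom (4.56%), 0 in DESeq2 (0.76%), and 0, 0 and 12 without numbers 1, 2 and 3 (1.38%, 2.18% and 4.39%). In footprints it was 0 as reported and 12 with numbers 2 and 3 alone (11.3%). With the block it was 4 with upper-quartile (6.68%) or total-count scaling (5.55%) or limma-voom (7.18%), 2 with DESeq2 (1.97%), and 11, 2 and 3 without numbers 1, 2 and 3 (10.6%, 5.92% and 6.24%). The fits with the block and 1 ID per group, added after the data were seen, gave 3 in RNA (4.53%) and 4 in footprints (6.02%). The ratio change was called in 1 member with numbers 2 and 3 alone (0.0143%) and with the block without number 1 (0.0178%). Footprints against RNA were called in 43 members with numbers 2 and 3 alone (70.4%) or with the block without number 1 (71.4%), in 40 with the block and upper-quartile scaling (61.9%), in 41 with the block in DESeq2 (54.5%), and in 13 to 26 when 1 library was left out (33.9% to 47.6%). Total-count scaling moved the median difference of all IDs to -0.397 and gave 22 members higher and 2 lower (44.6% of all IDs, 11.1% higher and 33.5% lower). A limit of 500 CPM gave 173 IDs in 99 groups, 2000 CPM gave 35 in 16, totals over 1 ID per group gave 154 in 89, and leaving out 1 library gave 58 to 85 IDs in 35 to 47 groups. The shares became 23.0% of footprints and 15.0% of RNA over 1 ID per group, 13.1% and 9.69% without the 3 largest groups, and 30.2% to 34.6% and 20.1% to 23.2% with 1 library left out. With 1 library left out, the sign of some log2 values was not kept: uc009qun.1 ran from -0.0506 to 0.24 in RNA (-0.0506 without number 1 at 35 °C and -0.0073 without number 3 with WTS) and from -0.0618 to 0.56 in the ratio change; in footprints uc007msi.2 ran from -0.43 to 0.14 and uc033hgy.1 from -0.52 to 0.13; uc007gqi.1 ran from -0.15 to 0.31 in the ratio change (-0.0585 without RNA number 3 at 35 °C); in footprints against RNA uc009kya.1 ran from -1.48 to 0.0572 and uc008ikb.2 from -0.0748 to 0.37. In the last comparison total-count scaling gave -0.19 for uc008ikb.2 (-0.12 with the block) and -0.0464 for uc008zrh.2 (-0.0519 with the block), and numbers 2 and 3 alone, or the block without number 1, gave -0.12 for uc008ikb.2. The cause was not tested.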
